A study of Mus musculus with 6 samples.

Results

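Heat shock chaperones are the proteins that help other proteins fold, keep unfolded chains from clumping and pass damaged ones on for destruction. The set described here holds 37 listed genes: the HSP70 and HSP90 chaperones, their J-domain partners and co-chaperones, the small heat shock proteins, the mitochondrial chaperonin, the cytosolic chaperonin TRiC and the heat shock factors that switch many of these genes on. The members were chosen by name, and each was read from the probe set with the highest mean over the 6 arrays among those that the platform annotation assigns to that gene alone. By this rule 35 of the 37 genes were measured, out of 12393 genes on the array, and these 35 had 78 probe sets between them. Hsp90ab1, the constitutive cytosolic HSP90, and Hsf1, the main heat shock factor, were not analysed here.

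The cells were CD4+CD25+ regulatory T cells (Treg), a T cell population that restrains other immune cells, isolated from mice with magnetic beads. HDAC9-/- mice, which lack the class IIa histone deacetylase HDAC9, gave 3 samples, and wild type mice gave 3 control samples. All 6 are labelled C57BL/6, no treatment is given, while the age of the mice, the deleted exons and the number of mice per sample were not given. Total RNA of each sample was hybridised to 1 array, and the p-values therefore measure the spread between these samples. Their small number limits the precision.

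HSP70 proteins bind short greasy stretches of unfolded chains in a cycle driven by ATP: J-domain proteins deliver the client and start ATP hydrolysis, and nucleotide exchange factors such as the BAG and HSP110 proteins release it. HSP90 takes over partly folded kinases and receptors, TRiC folds actin and tubulin in a closed chamber, and HSP60 with HSP10 does the same work in mitochondria. Heat or unfolded protein frees the factor HSF1, which binds repeats of GAA and its reverse complement TTC, the heat shock element, before the genes it activates. In Treg, HSP70 has been reported to rise when HDAC9 is missing, and its transcripts are therefore given on every array.

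Which members carry a heat shock element near their start is shown first, because many members are known targets of HSF1. RefSeq windows of build GRCm38.p6, running from 250 bases before to 50 after a transcript start, were found for 29 of the 35 measured members. Hsp90aa1, Hspa8, Hspa9, Cryab, St13 and Cct4 had no window and were not searched. A 3-unit element, GAANNTTCNNGAA or its reverse complement TTCNNGAANNTTC, was present in at least 1 window of 5 members (17.2%), against 0.603% of all 32851 windows of the same length and 0.662% of genes. These 5 were Hsph1, Chordc1, Dnajb6, Hspd1 and Hspe1. A shorter 2-unit element, GAANNTTC or TTCNNGAA, each of which is its own reverse complement and lies within the longer one, was present in 15 members (51.7%), against 16.97% of genes. Elements are printed in windows of 30 bases on the strand of the gene, with the matched letters in capitals, for the members whose results follow:
Hsph1: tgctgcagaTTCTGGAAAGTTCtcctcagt
Chordc1: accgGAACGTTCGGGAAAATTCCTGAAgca
Dnajb6: cagctccgaGAATCTTCCGGAAcgctagac
Hspe1: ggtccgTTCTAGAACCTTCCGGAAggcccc
Hspa1a: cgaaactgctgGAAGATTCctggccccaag
Bag3: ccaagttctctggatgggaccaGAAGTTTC

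Coordinates below are those of the 30-base windows, and distances to the start are those of the matched letters. The Hsph1 element lies within chr5:149636280-149636309 on the minus strand, just inside the transcript, and that of Chordc1 within chr9:18292259-18292288 on the plus strand, across the start. In Dnajb6 it lies at chr5:29735843-29735872 on the plus strand, from 46 to 34 bases before the start. Hspe1 and Hspd1 stand head to head, and 1 stretch, chr1:55088053-55088082, serves as the window of both: the printed letters are the plus strand, the strand of Hspe1, and Hspd1 has the reverse complement. The Hspa1a element, a 2-unit one, lies at chr17:34972242-34972271 on the minus strand, 104 to 97 bases before the start, and the same 30 letters stand before Hspa1b at chr17:34959324-34959353. Of the 250 bases before the start, 247 were identical between these neighbouring HSP70 genes. The Bag3 element, at chr7:128523603-128523632 on the plus strand, is also 2-unit and lies inside the transcript. A match is a description of letters and not evidence that the factor binds there.

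Values are log2 expression as deposited, and a difference is HDAC9-/- minus wild type on that scale. The differences of the chaperone set lay on both sides of 0. Of the 35 members 16 had a positive and 19 a negative difference, with a median of -0.0091, where the median over all 12393 genes was 0.013. No member passed an adjusted p of 0.05 (limma, Benjamini-Hochberg over all 22626 probe sets), where 0.00807% of genes did. At an unadjusted p of 0.05 there was 1 member, Bag3, or 2.86% of the set, against 8.74% of all genes (6.12% higher and 2.62% lower). The genotypes did not overlap for 5 members (14.3%), against 18.2% of all genes: 4 members, Bag3, Bag1, Hspa1a and Cct2, lay higher in HDAC9-/- Treg (all genes 12.5%) and 1, Hsp90aa1, lower (all genes 5.7%). Both shares were below those of the whole array. For 31 of the 35 members the 95% interval of the difference lay within a 1.5-fold change in either direction. The 4 with an interval that reached past this range were Hsph1, Cryab, Hsf2 and Bag3, and of all genes 90.2% had an interval within it.

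**Figure D1:**
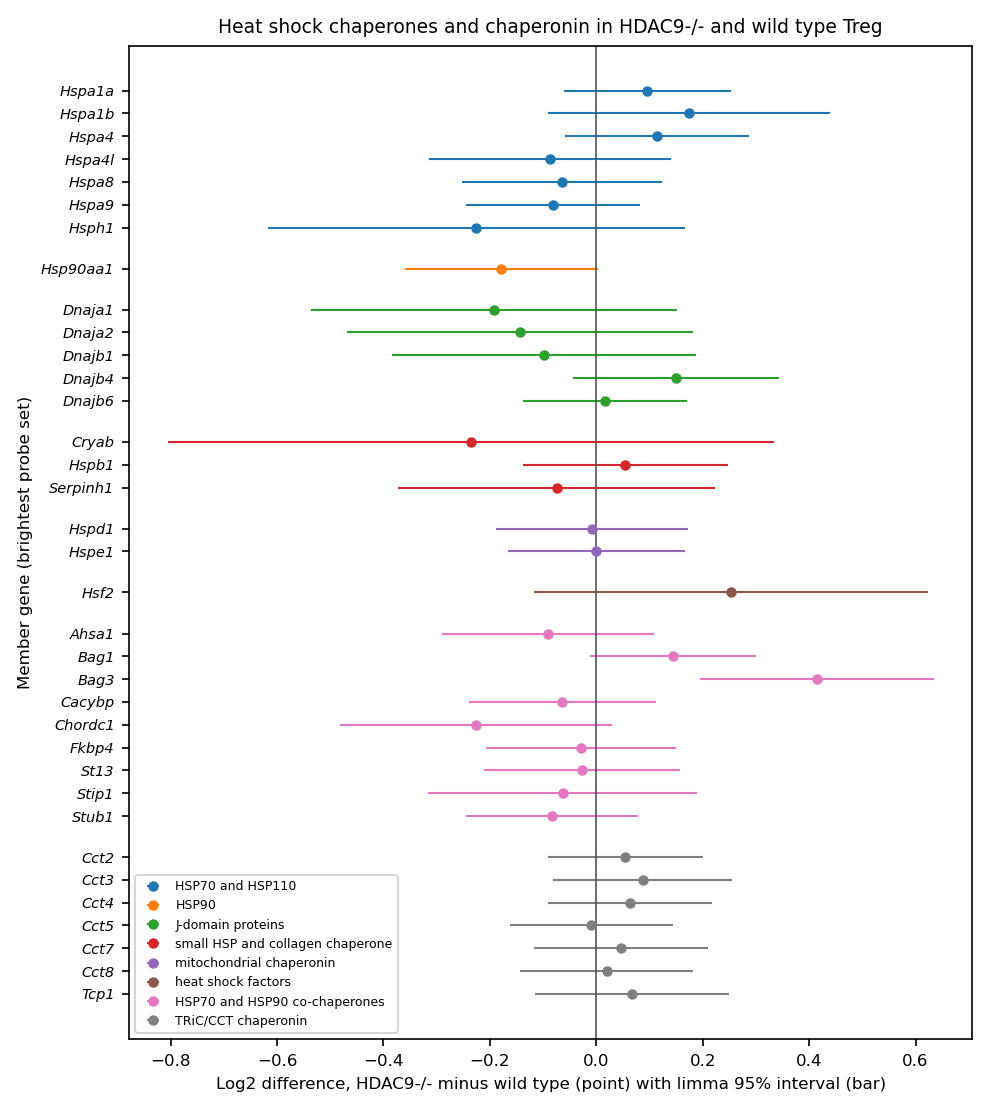
Log2 difference, HDAC9-/- minus wild type, of each of the 35 measured members, grouped by chaperone class; points are the limma estimate on the brightest probe set and bars its 95% interval. The interval of Bag3, 0.19 to 0.63, is the only one that leaves out 0, and no member passed the adjusted threshold.

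Beside these results stand measured differences between the groups that touch every member. Wild type replicate 3 stood apart, with a mean correlation with the other arrays of 0.991, against 0.994 to 0.996 for the rest. The 3-prime minus 5-prime signal of the Gapdh control probe sets, a measure of RNA integrity and labelling, was 0.15 to 0.28 in HDAC9-/- and 0.03 to 0.11 in wild type samples. For actin the same measure overlapped, at 0.42 to 0.60 in HDAC9-/- and 0.33 to 0.46 in wild type samples. All 14 listed myeloid markers had a positive difference, 7 of them without overlap, and their summed log2 signal was 116.3 to 122.3 in HDAC9-/- and 104.7 to 113.6 in wild type samples. For markers of CD8 T and natural killer cells 8 of 9 differences were positive, 2 of them without overlap. Their sums were 74.4 to 77.9 in HDAC9-/- and 73.2 to 74.7 in wild type samples. For B and plasma cell markers 5 of 8 were positive, with sums of 57.3 to 60.6 in HDAC9-/- and 58.6 to 59.6 in wild type samples. Of these 8, Jchain (-0.47) and Pax5 (-0.23) were lower in HDAC9-/- samples without overlap, and none was higher without overlap. The 14 immediate early genes, which cell handling can induce, summed to 138.5 to 139.3 in HDAC9-/- and 139.0 to 140.0 in wild type samples, with 4 positive differences. The 7 measured markers of Treg and CD4 T cells summed to 69.3 to 70.0 in HDAC9-/- and 69.4 to 69.8 in wild type samples. Of these 7, 3 differences were positive and 4 negative. Il2ra was lower without overlap, at 9.42, 9.34 and 9.42 in HDAC9-/- samples, against 9.45, 9.46 and 9.54 in wild type samples. None of the 7 was higher without overlap. Foxp3, which defines Treg, read 10.37 ± 0.05 in HDAC9-/- and 10.34 ± 0.05 in wild type samples (SD, n = 3). The probe set of Hdac9 itself was dim in both groups (3.67 ± 0.06 in HDAC9-/- and 3.78 ± 0.30 in wild type samples, SD, n = 3), and with the deleted exons unknown it does not check the labels. The part of these differences in the results on chaperones was not tested, and in RNA from a mixed fraction fewer cells of a type and less RNA per cell cannot be told apart.

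Among the co-chaperones, Bag3 and Bag1, 2 of the BAG proteins that make HSP70 let go of its client, were higher in HDAC9-/- Treg, without passing. Bag3, which also links HSP70 to small heat shock proteins and to selective autophagy and is a target of HSF1, read 7.60, 7.54 and 7.74 in HDAC9-/- replicates 1 to 3, against 7.35, 7.20 and 7.10 in wild type replicates 1 to 3. Every HDAC9-/- array thus lay above every wild type array, and the gap between the groups was similar to the spread within each of them. The difference was 0.41 with a standard error of 0.09, which is 1.33-fold (limma, unadjusted p = 0.00305, adjusted p = 0.404), and it rests on 1 probe set. Leaving out any 1 array kept it between 0.36 and 0.48, with adjusted p of 0.311 to 0.795, and without wild type replicate 3 it was 0.36. Bag1, a shorter member of the same family best known as a partner of BCL2, read 9.46, 9.44 and 9.37 in HDAC9-/- samples, against 9.33, 9.25 and 9.26 in wild type samples. These groups did not overlap either, and the difference was 0.14 (standard error 0.07, adjusted p = 0.586). The groups overlapped for the 4 other measured BAG genes, which are not listed members: Bag4 differed by 0.17, Bag6 by 0.07, Bag2 by 0.06 and Bag5 by -0.0011. The myeloid marker sum and the Gapdh measure were also higher in HDAC9-/- samples without overlap, while the actin measure overlapped. Within wild type, replicate 1 had the highest Bag3 reading, the lowest myeloid marker sum (104.7) and the highest Gapdh measure (0.11). The part of either in the differences of Bag3 and Bag1 was not tested.

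The other 7 co-chaperones all had negative differences, from -0.23 to -0.03, and none passed. Chordc1, which binds HSP90 and HSP70 and is induced by heat, read 9.69, 9.73 and 9.56 in HDAC9-/- samples, against 10.08, 9.85 and 9.72 in wild type samples. Only HDAC9-/- replicate 2 and wild type replicate 3 met, and by less than 0.02. Its difference was -0.23 (standard error 0.11, adjusted p = 0.601), -0.13 when wild type replicate 1 was left out and -0.31 without replicate 3 of that group. Stub1, the ubiquitin ligase CHIP that sends HSP70 clients to the proteasome, read 9.94, 9.86 and 9.85 in HDAC9-/- samples, against 10.04, 9.93 and 9.93 in wild type samples, with overlap. Ahsa1, which speeds up the ATPase of HSP90, differed by -0.09, Cacybp, a calcyclin-binding partner of ubiquitin ligases, by -0.06, and Stip1, the HOP adaptor that joins HSP70 to HSP90, also by -0.06. Fkbp4, a prolyl isomerase of steroid receptor complexes, and St13, the HSP70-interacting protein HIP, differed by -0.03 each.

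**Figure D2:**
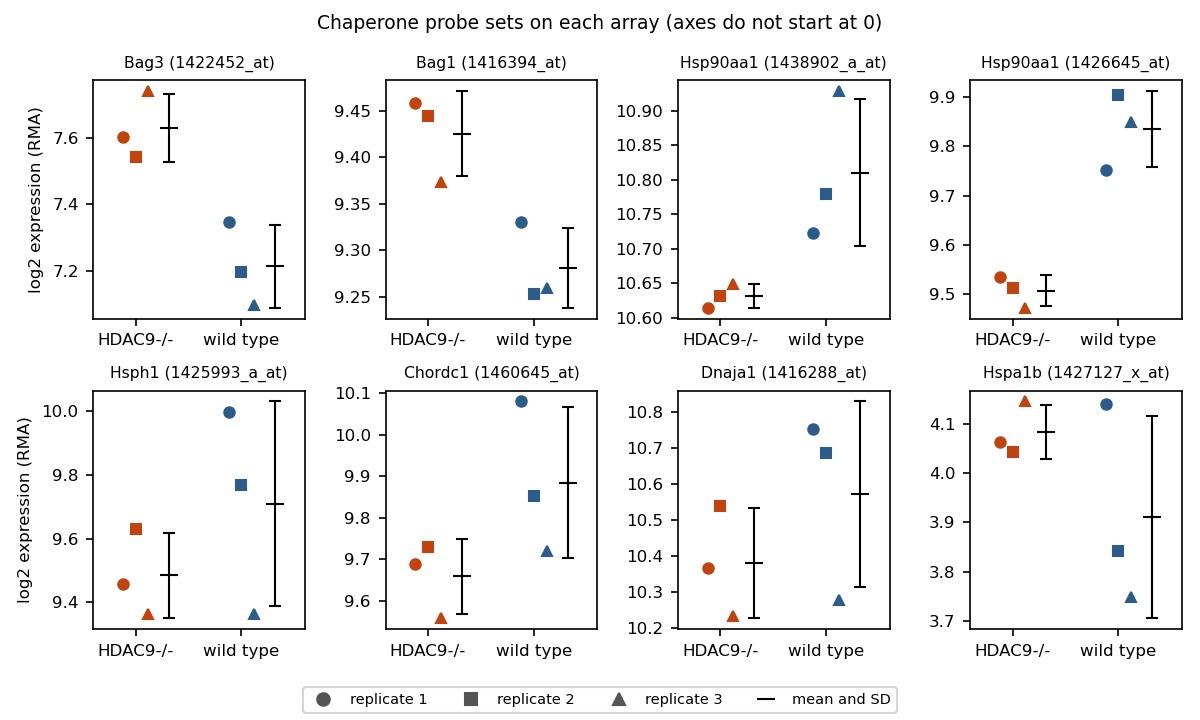
Log2 expression on each array for 8 chaperone probe sets, HDAC9-/- left and wild type right in each panel, with symbols for the replicates and bars for the mean and SD (n = 3). The genotypes do not overlap in the 4 upper panels (Bag3, Bag1 and 2 probe sets of Hsp90aa1), while in the 4 lower panels the wild type arrays span at least 0.36 and overlap the HDAC9-/- arrays.

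HSP90 was represented by Hsp90aa1, the heat-inducible cytosolic form, and its signal was lower in HDAC9-/- Treg without passing. The brightest probe set, 1438902_a_at, read 10.61, 10.63 and 10.65 in HDAC9-/- samples, against 10.72, 10.78 and 10.93 in wild type samples. The HDAC9-/- arrays lay close together and below all wild type arrays. The difference was -0.18 (standard error 0.08, 95% interval -0.36 to 0.0024, adjusted p = 0.572), and -0.12 without wild type replicate 3, the highest array. A second probe set, 1426645_at, read 9.54, 9.51 and 9.47 in HDAC9-/- samples, against 9.75, 9.91 and 9.85 in wild type samples, a difference of -0.33 (standard error 0.07, unadjusted p = 0.00238, adjusted p = 0.398). It stayed between -0.37 and -0.29 when any 1 array was left out. The third, 1437497_a_at, overlapped (difference -0.13, standard error 0.32). All 3 probe sets of this gene thus gave a negative difference of unequal size.

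The stress-inducible HSP70 genes were dim in both genotypes. Hspa1a read 3.28, 3.28 and 3.27 in HDAC9-/- samples, against 3.21, 3.11 and 3.23 in wild type samples, and the groups were separated by less than 0.05. The difference was 0.10 (95% interval -0.06 to 0.25, adjusted p = 0.677). For Hspa1b the brightest probe set read 4.06, 4.04 and 4.15 in HDAC9-/- samples, against 4.14, 3.84 and 3.75 in wild type samples, a difference of 0.17 (95% interval -0.09 to 0.44, adjusted p = 0.660). Wild type replicate 1 was among the HDAC9-/- values, and without it the difference was 0.29 (unadjusted p = 0.0128, adjusted p = 0.612). The other probe sets of Hspa1b differed by 0.06 and 0.09. Every mean of these 4 probe sets was under the array-wide median of 5.76, where values are pulled toward a common background, so that a difference in these transcripts was only poorly measurable. The genes are near copies of each other, and their probe sets may share signal.

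The constitutive HSP70 chaperones gave bright signals. Hspa8, the HSC70 that handles everyday folding in the cytosol, read 12.87, 12.76 and 12.70 in HDAC9-/- samples, against 12.93, 12.78 and 12.81 in wild type samples, and the groups overlapped (difference -0.06, 95% interval -0.25 to 0.12). Its 3 other probe sets differed by -0.22 to -0.01. Hspa9, the mitochondrial HSP70, differed by -0.08 in its brightest probe set and by 0.12 in the next one. Of the HSP110 proteins, which act as nucleotide exchange factors for HSP70, Hspa4 differed by 0.11 in its brightest probe set and by -0.23 and -0.35 in the others, so that its direction depends on the probe set. The last of these, 1435194_at, read 5.85, 5.80 and 5.74 in HDAC9-/- samples, against 6.42, 6.15 and 5.87 in wild type samples (unadjusted p = 0.0408, adjusted p = 0.557), and its difference was -0.49 without wild type replicate 3 and -0.21 when replicate 1 of that group was left out. The brightest probe set of Hspa4 read 10.09, 10.05 and 9.97 in HDAC9-/- samples, against 9.85, 9.92 and 10.00 in wild type samples, with overlap. Hspa4l, a relative best known from testis, differed by -0.09.

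Hsph1, the heat-inducible HSP110, varied more between wild type samples than between the genotypes. It read 9.46, 9.63 and 9.37 in HDAC9-/- samples, against 10.00, 9.77 and 9.37 in wild type samples. Wild type replicate 1 was the highest array and wild type replicate 3 was level with the lowest HDAC9-/- array. The difference was -0.23 (standard error 0.16, adjusted p = 0.691), -0.40 without wild type replicate 3 and -0.08 when replicate 1 of that group was left out. Its second probe set had nearly the same order of arrays, with 7.03, 7.12 and 6.86 in HDAC9-/- samples, against 7.87, 7.48 and 6.87 in wild type samples.

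J-domain proteins, the HSP40 partners that hand clients to HSP70, had 2 positive and 3 negative differences among 5 members. Dnaja1, a farnesylated cytosolic form induced by heat, read 10.37, 10.54 and 10.23 in HDAC9-/- samples, against 10.75, 10.69 and 10.28 in wild type samples. Again wild type replicates 1 and 2 were the highest arrays while replicate 3 lay among the HDAC9-/- values (difference -0.19, standard error 0.14, adjusted p = 0.698). Dnajb1, the classic heat-inducible HSP40, read 9.37, 9.48 and 9.32 in HDAC9-/- samples, against 9.72, 9.47 and 9.28 in wild type samples, and its difference of -0.10 turned to 0.02 without wild type replicate 1. Dnajb4, a close relative, was higher by 0.15 in its brightest probe set and by 0.28 in the second one. The brightest overlapped, with 7.08, 7.28 and 7.30 in HDAC9-/- samples, against 7.10, 7.08 and 7.03 in wild type samples (limma adjusted p = 0.625). The second, 1431734_a_at, read 5.64, 5.56 and 5.70 in HDAC9-/- samples, against 5.34, 5.38 and 5.36 in wild type samples (unadjusted p = 0.00501, adjusted p = 0.423). Its groups did not overlap, and the mean of the 6 arrays, 5.50, was under the array-wide median. Dnaja2, another cytosolic HSP40, had opposite signs in its probe sets, -0.14 and 0.29. Dnajb6, which keeps aggregation-prone proteins in solution, differed by 0.02 with a 95% interval of -0.14 to 0.17.

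**Figure D3:**
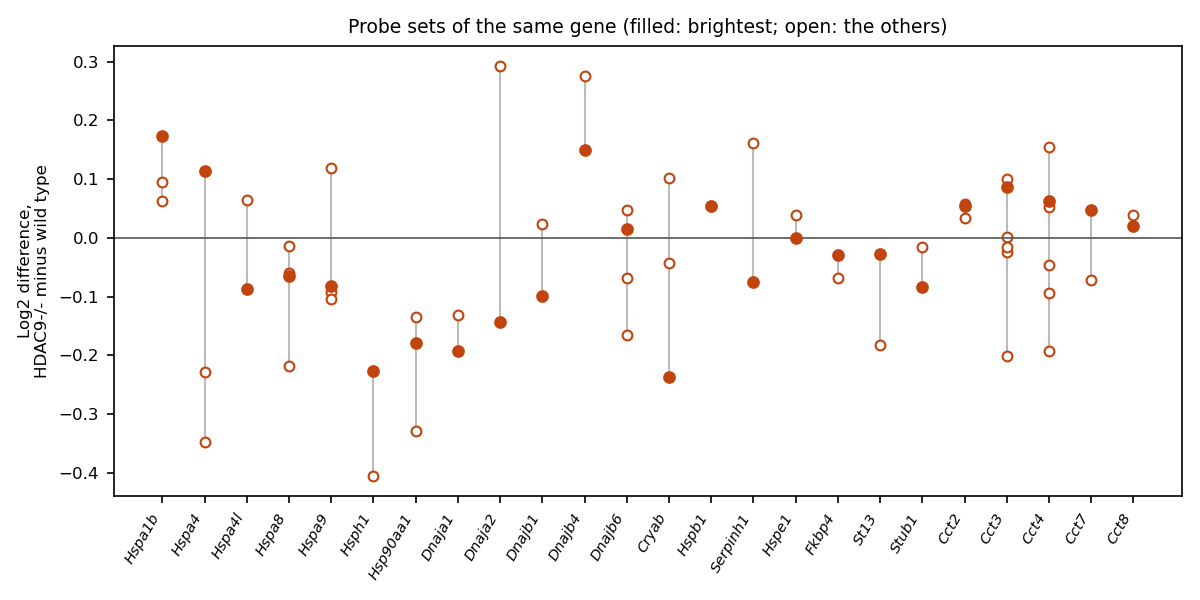
Log2 difference, HDAC9-/- minus wild type, of every probe set of the 24 members with several; filled points are the brightest probe set of the gene and open points the others. Signs differ within 11 of the 24 genes, all 3 probe sets of Hsp90aa1 and both of Hsph1 and Dnaja1 are negative, and both of Dnajb4 are positive.

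Among the members with several probe sets, the sign agreed across all of them in 13 of 24 genes, 6 positive and 7 negative. In no gene did probe sets pass 0.2 in both directions. Over all 78 member probe sets 4 had an unadjusted p below 0.05 (5.13%), against 8.78% of all probe sets on the array. These were the probe set of Bag3 and 1 each of Hsp90aa1, Dnajb4 and Hspa4, and none passed after adjustment (0.0133% of all probe sets did).

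The chaperonins, the barrel-shaped folding machines, gave small differences. The 7 measured subunits of TRiC, Tcp1, Cct2, Cct3, Cct4, Cct5, Cct7 and Cct8, had differences of -0.0091 to 0.09 with a median of 0.05, and 6 of 7 were positive. The median over the genes at or above the median signal, as all these subunits were, was 0.036, with 61.8% positive. Cct2 read 11.68, 11.62 and 11.64 in HDAC9-/- samples, against 11.58, 11.62 and 11.58 in wild type samples, and its groups were separated by less than 0.01. For the other 6 subunits the groups overlapped. The directions of Cct3, Cct4 and Cct7 turned negative, none beyond -0.013, when all probe sets of a gene were averaged. All 7 intervals lay within a 1.5-fold change. Cct6a, the remaining subunit and not a listed member, differed by -0.04 (adjusted p = 0.851). In the mitochondrial chaperonin, Hspe1, which encodes the lid HSP10, read 11.35, 11.25 and 11.34 in HDAC9-/- samples, against 11.31, 11.38 and 11.24 in wild type samples. Its difference was 0.0003, and that of Hspd1, the HSP60 barrel, was -0.0077, with 95% intervals of -0.17 to 0.17 and -0.19 to 0.17. Both genes of this pair, which share 1 start region, thus had a difference close to 0.

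The small heat shock proteins, which hold unfolded chains without using ATP, were represented by Hspb1 and Cryab. Hspb1 read 6.12, 6.29 and 6.10 in HDAC9-/- samples, against 6.11, 6.18 and 6.05 in wild type samples, with overlap and a difference of 0.05. Cryab, the alpha B crystallin of lens and muscle, read 3.43, 3.47 and 3.50 in HDAC9-/- samples, against 3.37, 3.43 and 4.31 in wild type samples. Its difference of -0.24 rests on wild type replicate 3 and was 0.07 without it. Serpinh1, the collagen chaperone HSP47 of the endoplasmic reticulum, was dim and differed by -0.07. Hsf2, the 1 measured heat shock factor, was dim as well, at 3.34, 3.82 and 3.50 in HDAC9-/- samples, against 3.37, 3.47 and 3.06 in wild type samples (difference 0.25, standard error 0.16, adjusted p = 0.652).

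The spread between wild type samples differed from member to member. In 9 of 35 members (25.7%) it was wider than in 75% of all genes, a share close to that of all genes. The range over the 3 wild type arrays was wider than that of 92.9% of genes for Hsph1, 85.9% for Dnaja1, 83.4% for Dnajb1, 75.2% for Chordc1 and 75.1% for Stip1. The corresponding shares in the HDAC9-/- arrays were 74.7%, 81%, 46.6%, 50.6% and 36.7%. It was also wide for the dim genes Cryab (98.2%), Hsf2 (80.4%) and Hspa1b (78.9%) and for Dnaja2 (80.2%). Other heat-inducible genes lay lower, with 57.5% for Bag3 and 48.1% for Hsp90aa1. Hspa1a, at 24.2%, is also heat-inducible and was dim. The part of low signal in the ranges of dim genes was not tested. The wild type range of Cct2 was wider than that of 3.3% of genes and that of Cct5 than 9.9%. Wild type replicate 1 was the highest wild type array for 8 of the 9 co-chaperones, against 46.7% of the genes at or above the median signal, and wild type replicate 3 was the lowest for 8 of the 9, against 54.6% of those genes. Over all 35 members these shares were 54.3% and 68.6%, and over the 46 other chaperones 45.7% and 50%. In HSP70 and HSP110 they were 4 and 3 of 7 genes, and in TRiC 3 and 5 of 7. Replicate 1 exceeded replicate 3 in all 9 co-chaperones, by a median of 0.21, where genes at or above the median signal had a median of 0.075 and all members 0.098. In the brightest probe sets the contrast ran the other way for Hsp90aa1 (-0.21), Hspa4 (-0.15) and the dim genes Serpinh1 (-0.28) and Cryab (-0.94). In the other probe sets of Hspa4, replicate 1 lay above replicate 3, at 7.79 against 7.28 and 6.42 against 5.87. Replicate 1 was also above in the other probe sets of Serpinh1 and Cryab. For Hsp90aa1 it was above in 1437497_a_at (10.09 against 9.70) but below in 1426645_at (9.75 against 9.85). For Hspb1, a small heat shock protein like Cryab, the contrast was 0.06 in the brightest probe set. Its other probe set read 4.91 in wild type replicate 1 and 5.48 in replicate 3. It was 0.63 for Hsph1, 0.47 for Dnaja1 and 0.44 for Dnajb1, but 0.02 for Dnajb6 and 0.07 for Hspe1. Of these, Hsph1, Dnajb6 and Hspe1 carry a 3-unit element and Dnaja1 and Dnajb1 do not in their windows. Dnaja1 carries the shorter element alone, and Dnajb1 carries neither. In the remaining members with a 3-unit element the contrast was 0.36 for Chordc1 and 0.098 for Hspd1. Whether the contrast goes with either element was not tested. Wild type replicate 1 also had the lowest myeloid marker sum, 104.7, and replicate 3 the lowest array median, 5.69 against 5.77 to 5.81 on the other arrays. The part of either in this spread was not tested.

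**Figure D4:**
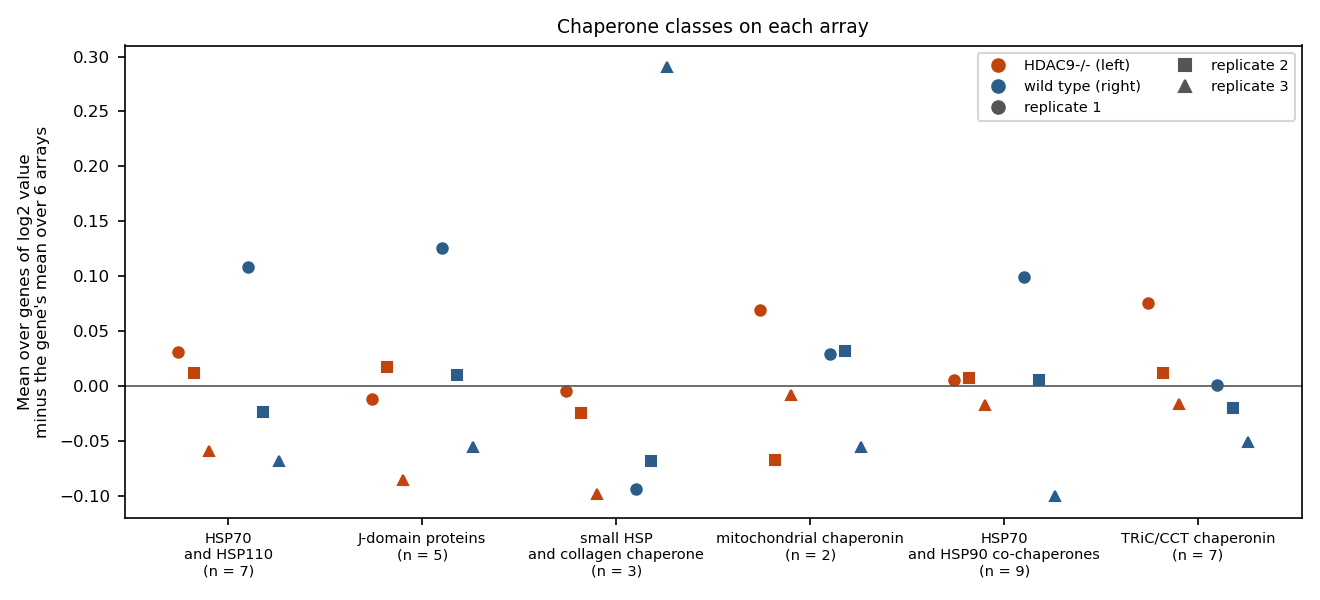
Mean over the genes of a chaperone class of the log2 value minus the gene's own mean over the 6 arrays, for the 6 classes with more than 1 measured gene, HDAC9-/- left and wild type right. Wild type replicate 1 is the highest array in the HSP70, J-domain and co-chaperone classes, at 0.10 to 0.13, and wild type replicate 3 stands alone at 0.29 in the class that holds Cryab.

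By class the genotypes overlapped in every class with more than 1 gene. For HSP70 and HSP110 the centred mean was 0.03, 0.01 and -0.06 in HDAC9-/- replicates 1 to 3, against 0.11, -0.02 and -0.07 in wild type replicates 1 to 3. For the co-chaperones it was 0.0059, 0.0074 and -0.02 in HDAC9-/- samples, against 0.10, 0.0054 and -0.10 in wild type samples, so that the wild type arrays enclosed the HDAC9-/- arrays. For TRiC it was 0.08, 0.01 and -0.02 in HDAC9-/- samples, against 0.0008, -0.02 and -0.05 in wild type samples. The median difference of the members with a 3-unit element was -0.0077 over 5 genes, and that of the 24 others with a RefSeq window was 0.033. For the 15 members with a 2-unit element it was 0.0003, and for the 14 with neither it was -0.022.

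Other chaperones of the cytosol and mitochondria, outside the listed members, also had differences on both sides of 0. Of 51 listed genes 46 were measured, and 26 had a positive and 20 a negative difference, with a median of 0.02. None passed the adjusted threshold, and 1 (2.17%) had an unadjusted p below 0.05, against 8.74% of all genes. That gene, Hspa2, an HSP70 best known from testis, read 5.12, 5.03 and 5.10 in HDAC9-/- samples, against 4.77, 4.90 and 4.84 in wild type samples (difference 0.25, standard error 0.07, unadjusted p = 0.00887, adjusted p = 0.442). Its groups did not overlap, and its signal was under the array-wide median. The genes next in order of p were Dnajc2, a ribosome-bound J-domain protein (0.15), Dnajb5, another J-domain protein (0.15), Sugt1, an HSP90 adaptor (-0.12), Pfdn6, a subunit of prefoldin, which passes new chains to TRiC (0.11), and Grpel1, the nucleotide exchange factor of mitochondrial HSP70 (0.13).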

How the data were processed

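Values are log2 expression per probe set as deposited, which the authors obtained by RMA according to the submitters' processing notes (version, settings and genome build: not given in the sources used here). RMA pulls dim values together, so differences of dim genes are understated. Control probe sets (64) were left out and 22626 tested. Symbols came from the platform annotation, updated through Entrez identifiers; 20380 probe sets carried 1 symbol.

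The fit used limma 3.58.1 under R 4.3.3 (genotype alone, lmFit and eBayes) with p adjusted by Benjamini-Hochberg over all probe sets; the fit was tested on simulated data. Groups came from sample titles. Promoter windows are RefSeq's, GRCm38.p6. Figures used matplotlib 3.10.9.

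All members are named; members with an unadjusted p below 0.05, inducible HSP70, HSP90 and the brightest member of each class are given on every array, as are, after their values were seen, Bag1, Chordc1, Hsph1, Dnajb1, Dnajb4, Hspa4 and Cryab. Of other chaperones the 6 smallest p are named. Members and lists were chosen with earlier results of these data known. Alternatives were 2 normalizations, a brightness filter, 2 variance models, a replicate block, all probe sets averaged and leaving out each array.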

Additional observations from a re-analysis of the deposited data

How the results depend on the processing

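No member and no gene of the other chaperones passed the adjusted threshold under any of the 13 alternatives run, and the smallest adjusted p of a member's brightest probe set over them was 0.181 (Bag3, variance prior with trend and robust options). In that setting 1426645_at, the second probe set of Hsp90aa1, had a limma adjusted p of 0.0941 and did not pass either. The median of the members ran from -0.0348 to -0.0069 under the alternatives that keep all arrays, and from -0.022 to 0.0169 when 1 array was left out. Members with an unadjusted p below 0.05 numbered 2 (5.71%) with array medians aligned, where 6.94% of all genes did, 2 with all probe sets averaged (all genes 9.17%), 3 of 30 (10%) with dim probe sets left out (all genes 15%), 3 (8.57%) with array weights (all genes 11.8%) and 4 (11.4%) with the trended robust prior (all genes 11%). When 1 array was left out they numbered 1 to 4, with 3 when wild type replicate 1 (all genes 7.88%) and 4 when wild type replicate 3 was left out (all genes 9.8%), and 2 without HDAC9-/- replicate 1 (all genes 5.83%). Without any 1 of the other arrays they numbered 1 (2.86%), where the share of all genes was 6.21% to 8.21%. The myeloid median ran from 0.309 to 0.733 when 1 array was left out. Of 485 values of members and of 3 further probe sets under alternatives 454 kept their sign and 31 turned it. With all arrays the turned values were 0.0063 for Hspd1 after quantile normalization again, -0.0097, -0.0254 and -0.0059 for Dnajb6, Hspe1 and Cct8 with array medians aligned, and -0.0367 for Hspe1 with array weights. With all probe sets averaged they were -0.154 for Hspa4, 0.0749 for Dnaja2, -0.0426 for Dnajb6, 0.0437 for Serpinh1, -0.0085 for Cct3, -0.0099 for Cct4 and -0.0126 for Cct7. The cause was not tested, apart from averaging, which adds the other probe sets of the gene. Leaving out 1 array turned the sign of 12 members: Cct5 (-0.0326 to 0.0097), Cct8 (-0.0133 to 0.0449), Cryab (-0.402 to 0.0661), Dnajb1 (-0.204 to 0.0169), Dnajb6 (-0.0038 to 0.0389), Fkbp4 (-0.0822 to 0.0189), Hspb1 (-0.0068 to 0.0914), Hspd1 (-0.0623 to 0.0279), Hspe1 (-0.0337 to 0.0329), Serpinh1 (-0.175 to 0.0257), St13 (-0.0764 to 0.0284) and Stip1 (-0.169 to 0.0107). Same-numbered samples did not deviate together (correlations of 0.0365, 0.0991 and -0.249). Under a replicate block 0 members passed and 1 (2.86%) had an unadjusted p below 0.05 (all genes 6.91%), with an adjusted p of 0.670 for Bag3.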
